A study of Arabidopsis thaliana with 6 samples.

Results

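Of the 33602 loci with deposited gene counts, 10 are described here: the genes for the last steps of gibberellin synthesis (GA20OX1, GA20OX2 and GA3OX1), for its breakdown (GA2OX1, GA2OX2, GA2OX6 and GA2OX8) and for its soluble receptors (GID1A, GID1B and GID1C). They were picked by locus identifier, and their coordinates are those of the TAIR10 build. The plants were wild-type Arabidopsis thaliana seedlings of the Columbia ecotype (Col), 9 days old, raised at 22 °C under 12 h light and 12 h dark. In the light pulse group, white light was switched on for 2 h in the middle of the night, at ZT18 (ZT counts hours since lights on). The dark control group stayed in darkness, and both groups were harvested at ZT20, with 3 libraries per group made from RNA of pooled tissues.

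Gibberellins are growth hormones that promote germination, elongation of stems and hypocotyls, and flowering. GA20OX enzymes convert gibberellin precursors in several steps, GA3OX enzymes make the active hormone, and GA2OX enzymes inactivate the hormone or its precursors. The active hormone binds a GID1 receptor, which then brings DELLA proteins, the repressors of gibberellin responses, to degradation through the F-box protein SLY1. In Arabidopsis a rise in active gibberellin is known to lower the transcripts of GA20OX1, GA20OX2, GA3OX1 and the receptors and to raise those of some GA2OX genes, and light acts on several of these genes.

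The libraries held from 8695843 to 12689543 reads in genes, of which ribosomal RNA took 0.799% to 4.77%. Values below are CPM, read counts brought to a common library size with TMM scaling, and a change is light over dark on the log2 scale with its standard error (n = 3 libraries per group). The threshold for a call was a Benjamini-Hochberg adjusted p of 0.05 in edgeR's quasi-likelihood test over the 20151 genes that passed a filter on low counts. All 14 root, leaf and stomatal markers examined had reads. Of the 7 root markers 3 were called higher and 2 lower (median change 0.19), and their sum, mostly PHO1, ranged from 214 to 227 CPM in dark and from 190 to 203 CPM in light libraries. Of the 7 leaf and stomatal markers 2 were called higher and 3 lower (median change -0.01), and their sum, nearly all RBCS1A and CAB3, ranged from 12865 to 13659 CPM and from 14337 to 15413 CPM. The genes of neither list moved in a single direction, although the root sum was lower and the leaf sum higher in every light library. In the leaf sum, mean CAB3 went from 782 to 1622 CPM and mean RBCS1A from 12261.2 to 12978.5 CPM. In such bulk RNA, fewer cells of a type and less RNA per cell cannot be told apart, and the part of cell makeup in the results was not tested.

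Of the 3 receptor genes, GID1C and GID1A fell after the light pulse and GID1B was not called, while the synthesis gene GA3OX1 and the breakdown gene GA2OX6 were slightly higher. GA2OX1 went from nearly no reads to a low level. Of the 10 genes, 7 passed the low-count filter, and of these 2 were called higher and 2 lower. Over all genes tested, 56.3% were called, 28.9% higher and 27.4% lower, so these shares were near the background. The median change of the 7 was -0.19, against -0.0031 over all genes tested. The 3 light libraries lay above the 3 dark ones for 4 of the 10 genes and below them for another 4. Among the 25286 loci with any read, 26.7% lay wholly above and 25.5% wholly below.

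**Figure D1:**
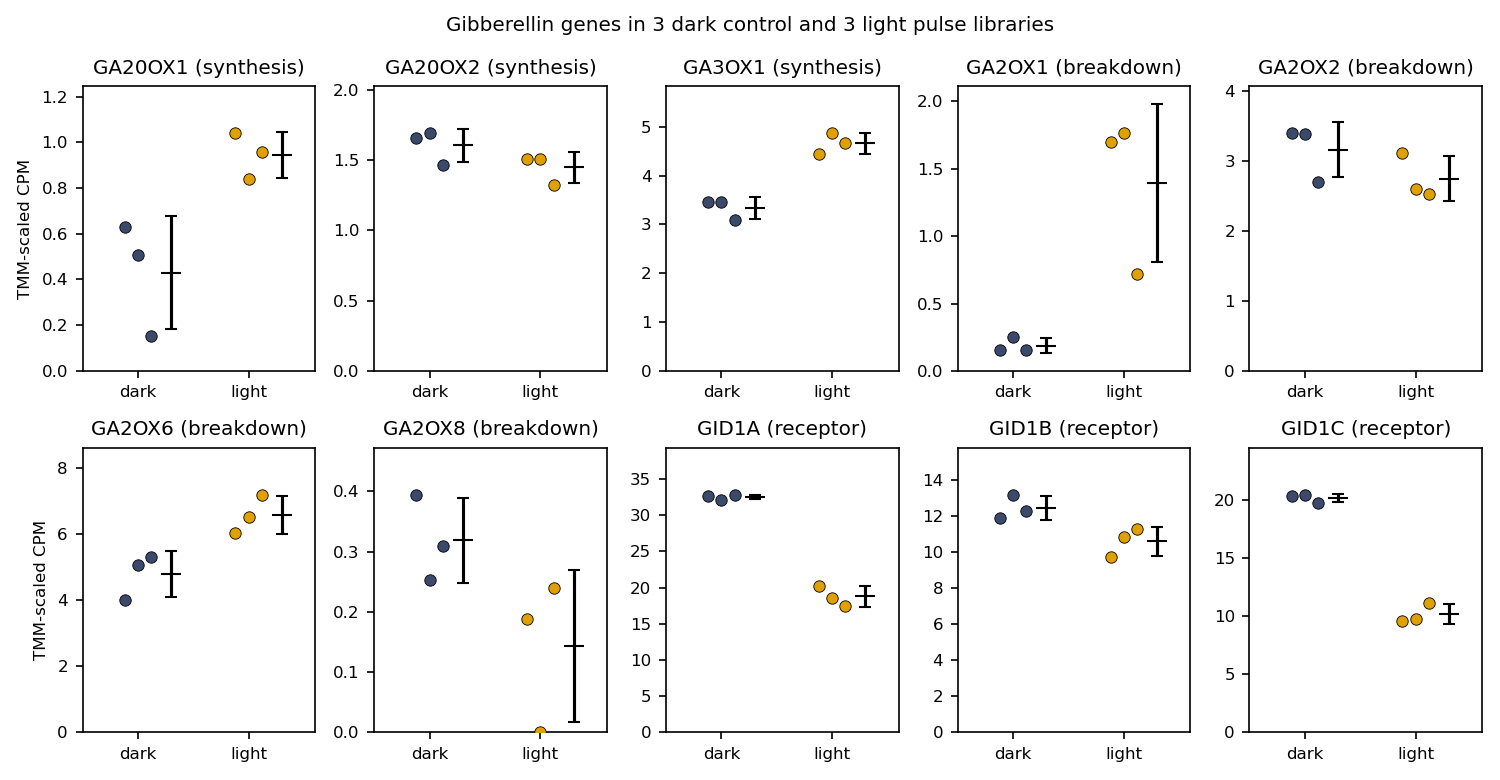
TMM-scaled CPM of each of the 10 genes in 3 dark control (blue) and 3 light pulse (yellow) libraries, with the mean and SD as black bars beside the points. Each vertical axis starts at 0 and has its own scale. GID1A and GID1C show the clearest separation, with all light points far under the dark ones.

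GID1A, GID1B and GID1C are the 3 gibberellin receptors of Arabidopsis, known to overlap in function. GID1A (AT3G05120, chromosome 3, 1430471 to 1432778) stood at 32.6, 32.2 and 32.8 CPM in dark libraries A, B and C and at 20.3, 18.5 and 17.5 CPM in light libraries A, B and C. The dark values were nearly equal and the light values were all far lower. GID1A fell by 0.79 on the log2 scale (SE 0.08), 1.73-fold, with an adjusted p of 5.94e-07. It was the most abundant of the 10 genes, and 40.8% of tested genes had a higher level per kb of exon. GID1C (AT5G27320, chromosome 5, 9629087 to 9631210) stood at 20.3, 20.4 and 19.8 CPM in the dark and 9.63, 9.73 and 11.2 CPM in light. Again the groups were well apart, with little spread inside either one. GID1C fell by 1.00 on the log2 scale (SE 0.10), 1.99-fold, with an adjusted p of 4.89e-07. A larger fall was estimated for 5.54% of tested genes, and a larger fall than that of GID1A for 8.73%. Both calls held under all 14 alternatives run, with changes from -1.14 to -0.96 for GID1C and from -0.93 to -0.74 for GID1A.

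GID1B (AT3G63010, chromosome 3, 23289425 to 23291486) is known for a higher affinity for gibberellin than the other receptors. It stood at 11.9, 13.2 and 12.3 CPM in the dark and at 9.72, 10.8 and 11.3 CPM in light. The light values lay just under the dark ones, with a small gap. Its change of -0.23 ± 0.11 was not called (adjusted p = 0.0826), and the 95% interval of the fold, 0.724 to 1.00, runs from a moderate loss to no change. With library totals alone as scaling it was called, at -0.37 (adjusted p = 0.0124). That scaling shifts the median change of all genes by -0.14.

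The receptors differed in how much of their pool they kept. Per kb of exon, the 3 receptors summed to 37.5 ± 0.292 CPM per kb in the dark and 22.6 ± 0.264 CPM per kb in light (mean ± SD, n = 3), a 1.66-fold difference with no overlap. GID1B made up 17.2%, 18.7% and 17.7% of this sum in the dark and 23.1%, 26.1% and 26.6% in light. Its share was thus higher in every light library, by 7.39 percentage points. GID1C went the other way, from 32.3 ± 0.455% to 27.0 ± 2.05%. For both, the exact two-sided permutation p was 0.1, the smallest that 3 against 3 libraries allow. GID1A held 49.9 ± 0.881% and 47.7 ± 3.67% with overlapping libraries (exact permutation p = 0.5).

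Among the synthesis genes, GA3OX1, known as the main 3-oxidase of vegetative growth together with GA3OX2, was higher in light. GA3OX1 (AT1G15550, chromosome 1, 5344478 to 5346166) stood at 3.47, 3.46 and 3.09 CPM in the dark and 4.44, 4.86 and 4.68 CPM in light. The groups did not overlap, although each value rests on only 39 to 58 reads. The change was 0.48 ± 0.18 (adjusted p = 0.029). This call is fragile and was lost in 7 of 14 alternatives, among them those without dark library A (adjusted p = 0.0544), dark library C (0.0912), light library B (0.0891) or light library C (0.0578), without the 2 libraries richest in rRNA (0.126), and that by DESeq2 (0.155).

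GA20OX2 (AT5G51810, chromosome 5, 21055188 to 21056808) stood at 1.65, 1.69 and 1.47 CPM in the dark and 1.51, 1.51 and 1.32 CPM in light. The groups overlapped, and the change of -0.14 ± 0.27 was not called (adjusted p = 0.709). Its 95% interval, -0.71 to 0.44, leaves room for moderate changes either way. GA20OX1, the stem-expressed 20-oxidase whose loss gives semi-dwarf plants, had too few reads for the filter. GA20OX1 (AT4G25420, chromosome 4, 12990884 to 12992458) had 8, 6 and 2 reads in the dark and 11, 10 and 8 in light, or 0.63, 0.506 and 0.154 against 1.04, 0.839 and 0.96 CPM. The light libraries all lay above the dark ones, at 2.20 times their mean CPM (exact permutation p = 0.1, the smallest possible). Without the filter the change was 1.12 ± 0.50 and was not called (adjusted p = 0.0684). The fits that left out a single library kept the filter, and GA20OX1 passed it in some of them through its light reads. In these fits the size leaned on the 2 reads of dark library C. It was 0.70 without that library (adjusted p = 0.2) and 1.5 without dark library A (0.0369). Since a gene that passes by its light reads is favoured to look higher in light, the last value is not read as a call.

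Among the breakdown genes, GA2OX1 showed the largest relative difference of the 10 genes, at a very low level. GA2OX1 (AT1G78440, chromosome 1, 29511599 to 29513051), an enzyme that inactivates the active hormone and its direct precursors, had 2, 3 and 2 reads in the dark and 18, 21 and 6 in light. In CPM these are 0.158, 0.253 and 0.154 against 1.70, 1.76 and 0.72. Every light library was above every dark one, and light library C was well under the other two light libraries. The mean CPM was 7.40 times higher in light (exact permutation p = 0.1). GA2OX1 did not pass the filter. In the same test without it, GA2OX1 rose by 2.88 ± 0.54 (adjusted p = 3.8e-05), where of the 25286 loci 23.4% were called higher and 22.2% lower (45.7% in all), and DESeq2 gave 2.91 (adjusted p = 0.000602). The light reads were spread over all 3 exons, with 18, 15 and 20 reads in the order of the genome against 0, 4 and 3 in the dark. Its introns were crossed by 5 and 3 spliced reads in light and by 0 in the dark.

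GA2OX6 acts on the same kind of substrate as GA2OX1. The deposited table gives the name ATGA2OX4 to 2 loci, and this one, AT1G02400 (chromosome 1, 486801 to 489577), is GA2OX6 in the RefSeq gene table. It stood at 4.02, 5.06 and 5.33 CPM in the dark and 6.04, 6.54 and 7.20 CPM in light. Light values were all higher, but the gap between the groups was smaller than the spread inside either. The change was 0.45 ± 0.16 (adjusted p = 0.028). The call was lost without dark library A (adjusted p = 0.122), light library B (0.0622) or light library C (0.088), and by DESeq2 (0.116). With library totals alone, neither GA2OX6 (0.31, adjusted p = 0.124) nor GA3OX1 (0.34, adjusted p = 0.128) was called.

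The other 2 breakdown genes were not called. GA2OX2 (AT1G30040, chromosome 1, 10537648 to 10539831), of the same substrate class, stood at 3.39, 3.38 and 2.70 CPM in the dark and 3.11, 2.60 and 2.52 CPM in light, with overlapping groups. Its change was -0.19 ± 0.21 (adjusted p = 0.46, 95% interval -0.64 to 0.26). GA2OX8 (AT4G21200, chromosome 4, 11302685 to 11306601), of the class that acts on earlier precursors, was barely detected. It had 5, 3 and 4 reads in the dark and 2, 0 and 2 in light. A count of 0 in light library B allows up to 0.252 CPM, counting error only. Without the filter its change was -1.23 ± 0.87 (adjusted p = 0.273), so no difference was detectable at this depth.

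**Figure D2:**
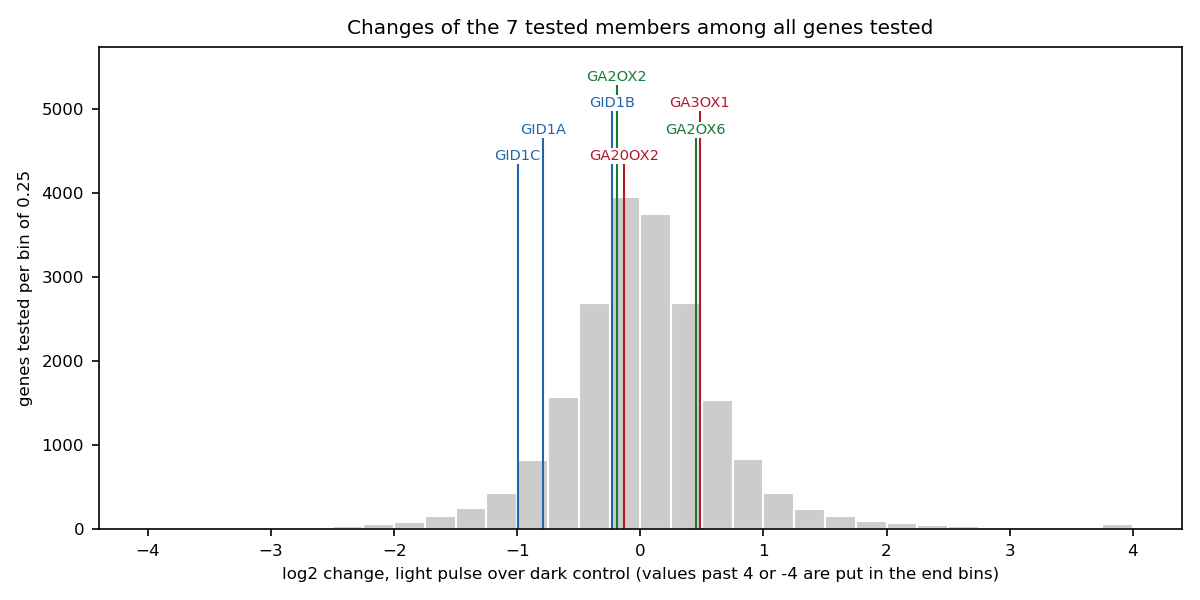
Distribution of log2 changes (light pulse over dark control) of all 20151 genes tested, in bins of 0.25, with vertical lines at the 7 tested members (blue receptors, red synthesis, green breakdown). GID1C and GID1A lie on the left shoulder, and the other 5 lie within 0.5 of 0.

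Per kb of exon, the order of levels in the dark was GID1A (18.7 CPM per kb), GID1C (12.1), GID1B (6.70), GA2OX6 (3.59), GA3OX1 (2.66), GA2OX2 (1.69), GA20OX2 (1.14), GA20OX1 (0.336), GA2OX8 (0.271) and GA2OX1 (0.154). Neighbours in this order did not overlap between libraries, except GA20OX1 and GA2OX8. In light the order was GID1A (10.8 CPM per kb), GID1C (6.10), GID1B (5.71), GA2OX6 (4.92), GA3OX1 (3.71), GA2OX2 (1.47), GA2OX1 (1.14), GA20OX2 (1.03), GA20OX1 (0.738) and GA2OX8 (0.122). There, GID1C overlapped GID1B and GID1B overlapped GA2OX6, and GA2OX1 overlapped both of its neighbours. The levels of GID1C, GID1B and GA2OX6 thus lay closer together in light, and GA2OX1 moved from the last place to the seventh.

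Within the GA20OX and GA2OX families, the shares of some genes lay apart between the groups, several of them on few reads. GA20OX1 held 28.6%, 22.5% and 8.73% of the summed GA20OX level per kb in the dark and 41.6%, 37.8% and 44.3% in light, so its share was higher in every light library. These shares rest on 2 to 11 reads of GA20OX1 per library. The difference was 21.3 percentage points, and 15.7 without dark library C. The GA20OX sum itself was 1.62 ± 0.209 and 1.79 ± 0.138 CPM per kb, with overlapping libraries. In the GA2OX family, GA2OX1 made up 2.11 ± 0.539% in the dark and 12.9 ± 4.72% in light, and GA2OX2 23.4 ± 3.17% and 16.9 ± 1.06%. Neither pair of groups overlapped, and the exact permutation p was 0.1, the smallest possible, for the shares of GA20OX1, GA2OX1 and GA2OX2. GA2OX4, a further member of the family, went from 20.7 ± 2.58% to 7.93 ± 5.55%. GA2OX6 stayed the largest part, at 49.4 ± 5.78% and 57.2 ± 10.2%, with overlapping libraries (exact permutation p = 0.4). The GA2OX sum was 7.24 ± 0.332 CPM per kb in the dark and 8.69 ± 0.752 in light, and its light libraries lay above the dark ones. It covers GA2OX1, GA2OX2, GA2OX3, GA2OX4, GA2OX6, GA2OX7 and GA2OX8. The loci AT5G58660 (1.18 CPM per kb in the dark and 1.06 in light) and AT3G47190 (0.0223 and 0.0620), which carry no name, were left out of it.

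The GA3OX family, examined after the values of GA3OX2 had been seen, changed its leading member. GA3OX1 held 74.5%, 68.8% and 69.7% of the GA3OX level per kb in the dark and 36.3%, 39.1% and 30.1% in light, and GA3OX2 held nearly all the rest. The leading gene was GA3OX1 in every dark library and GA3OX2 in every light library. The exact permutation p was 0.1. The GA3OX sum was 3.74 ± 0.240 CPM per kb in the dark and 10.7 ± 1.47 in light, 2.85 times as high.

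**Figure D3:**
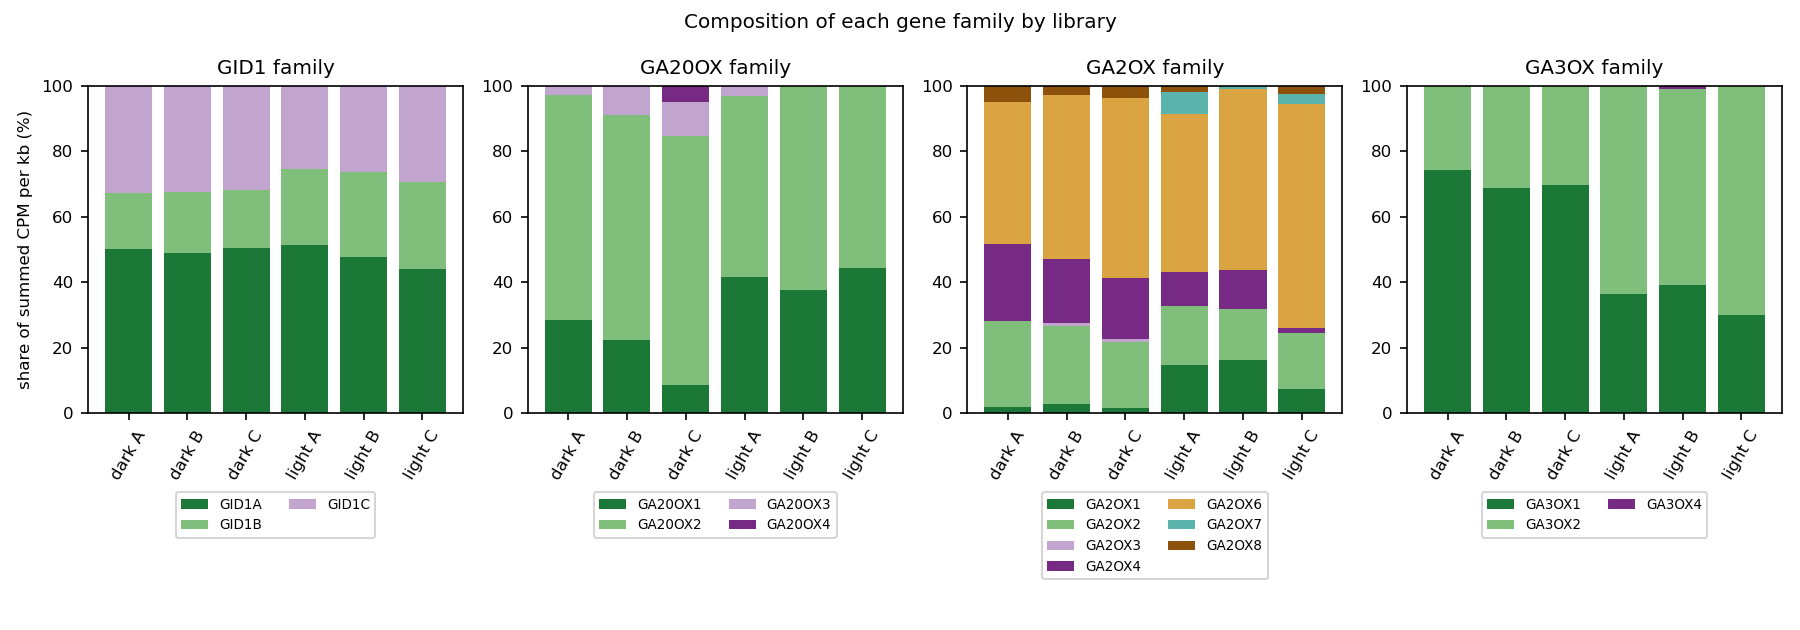
Share of each gene in the summed CPM per kb of its family, one stacked bar per library, for GID1, GA20OX, GA2OX and GA3OX. The share of GID1B is larger in all light bars, and GA3OX2 is the larger part of each light bar and the smaller part of each dark bar. GA20OX bars rest on few reads.

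The rest of the pathway was described from 36 further loci, of which 24 passed the filter, 5 were called higher and 11 lower. Over all genes tested, as above, 28.9% were called higher and 27.4% lower. The median change of the 24 was -0.30. Together with the 10 genes, 7 were called higher and 13 lower, and 4 and 17 with library totals alone. These sets were small and were chosen with earlier results of the same data known.

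Upstream of the 10 genes, GA3, KAO1 and KAO2 fell. GA3, ent-kaurene oxidase, went from 31.8 ± 0.991 to 17.96 ± 1.24 CPM (-0.82 ± 0.08, adjusted p = 4.75e-07). KAO1 (-0.55 ± 0.10) and KAO2 (-0.25 ± 0.07), the enzymes of the following step, had an adjusted p of 0.000243 and 0.00819. Of 4 early synthesis genes tested, 3 were called lower and 0 higher, against 27.4% and 28.9% of all genes, a list too small to set apart from them. The late-acting GA3OX2 went the other way. It stood at 1.02, 1.35 and 1.16 CPM in the dark and 6.70, 6.46 and 9.36 CPM in light, a rise of 2.64 ± 0.23 (adjusted p = 1.27e-07). A larger rise was estimated for 0.794% of tested genes.

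Of the other inactivation genes tested, GA2OX4 (-0.95 ± 0.42, adjusted p = 0.067) and the cytochrome P450 gene ELA1 (-0.53 ± 0.30, 0.142) were not called. Both depended on single libraries. GA2OX4 was called at -1.30 without light library B (adjusted p = 0.0489) and stood at -0.55 without light library C (0.205), where it had 1 read. With library totals alone it was called at -1.09 (0.0336). ELA1 was called at -0.94 without light library B (adjusted p = 0.0296) and stood at -0.35 without light library A (0.401). GA2OX7, of the same class as GA2OX8 and named after its values were seen, had 0 reads in every dark library and 7, 1 and 2 in light. It did not pass the filter, and most of its reads came from light library A. Without the filter its change was 4.93 ± 1.53 (adjusted p = 0.00837), where 23.4% of the 25286 loci were called higher. AT5G58660, which neither the files nor the gene table name, was not called (-0.19 ± 0.30, adjusted p = 0.624).

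The DELLA genes, whose proteins the receptors act on, moved in both directions. RGL2, known as the main DELLA of seed germination, stood at 8.98, 4.98 and 6.10 CPM in the dark and 21.7, 25.1 and 20.6 CPM in light. It rose by 1.75 ± 0.16 (adjusted p = 1.73e-07). RGA, the most abundant of the 5 in CPM, rose by 0.24 ± 0.06 (adjusted p = 0.00438), a call lost with library totals alone (0.193). RGL1 was called at -0.35 ± 0.13 (adjusted p = 0.0257), and lost the call without dark library B (0.073), light library A (0.102) or light library B (0.074), without the rRNA-rich pair (0.111), and by DESeq2 (0.131). GAI and RGL3 were named after their values were seen. GAI, at 44.0 and 41.9 CPM, was not called (-0.07 ± 0.06, adjusted p = 0.357), but was called with library totals alone (-0.21, 0.0151). RGL3 was called (-0.53 ± 0.21, adjusted p = 0.0427), and lost the call without dark library B (0.16), dark library C (0.0608), light library B (0.135) or light library C (0.152), and by DESeq2 (0.103).

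Of 4 genes that act on DELLA proteins, 2 were called lower and 0 higher, a share of calls near the 56.3% of all genes tested. SPY, an enzyme that adds fucose to DELLA proteins, went from 58.9 ± 2.85 to 36.4 ± 1.39 CPM (-0.70 ± 0.06, adjusted p = 2.81e-07). SNE, a relative of SLY1, was called at -0.89 ± 0.37 just under the threshold (adjusted p = 0.0495), with overlapping libraries, and lost the call in 7 of 13 alternatives. Among these were those without dark library B (0.078), dark library C (0.215), light library B (0.22) or light library C (0.112). SLY1 itself was not called (-0.15 ± 0.10, adjusted p = 0.243), but was called with library totals alone (-0.29, 0.0282).

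Further downstream, 4 of 6 genes were called lower and 1 higher, against 27.4% and 28.9% of all genes tested. GASA6, a small peptide gene known to respond to gibberellin, stood at 342, 405 and 392 CPM in the dark and 52.9, 60.7 and 43.4 CPM in light. It fell by 2.85 on the log2 scale (SE 0.10), with an adjusted p of 4.3e-12, and 0.238% of tested genes had a larger fall. Its relative GASA4 fell too, from 235 ± 9.15 to 98.7 ± 6.39 CPM (-1.25 ± 0.06, adjusted p = 2.52e-10). GASA14 and GASA1 were named after their values were seen. GASA14 was called lower (-0.92 ± 0.11, adjusted p = 5.06e-06). GASA1, at 180 CPM in the dark and 193 CPM in light, was not called (0.10 ± 0.09, adjusted p = 0.385). The GASA genes listed thus did not all fall. IDD2, a zinc finger protein that pairs with DELLA proteins at the GA20OX2 promoter, fell by 1.80 on the log2 scale (SE 0.09, adjusted p = 1.18e-10). SCL3, a GRAS protein that acts against DELLA repression and was named after its values were seen, rose by 0.82 ± 0.09 (adjusted p = 2.27e-06). NPF3.1, a membrane transporter known to carry gibberellin, rose from 26.8 ± 1.15 to 92.3 ± 8.43 CPM (1.78 ± 0.08, adjusted p = 3.17e-11). NPF3.1 shares coordinates with 1 other locus, and whether reads of that locus were counted in was not tested.

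**Figure D4:**
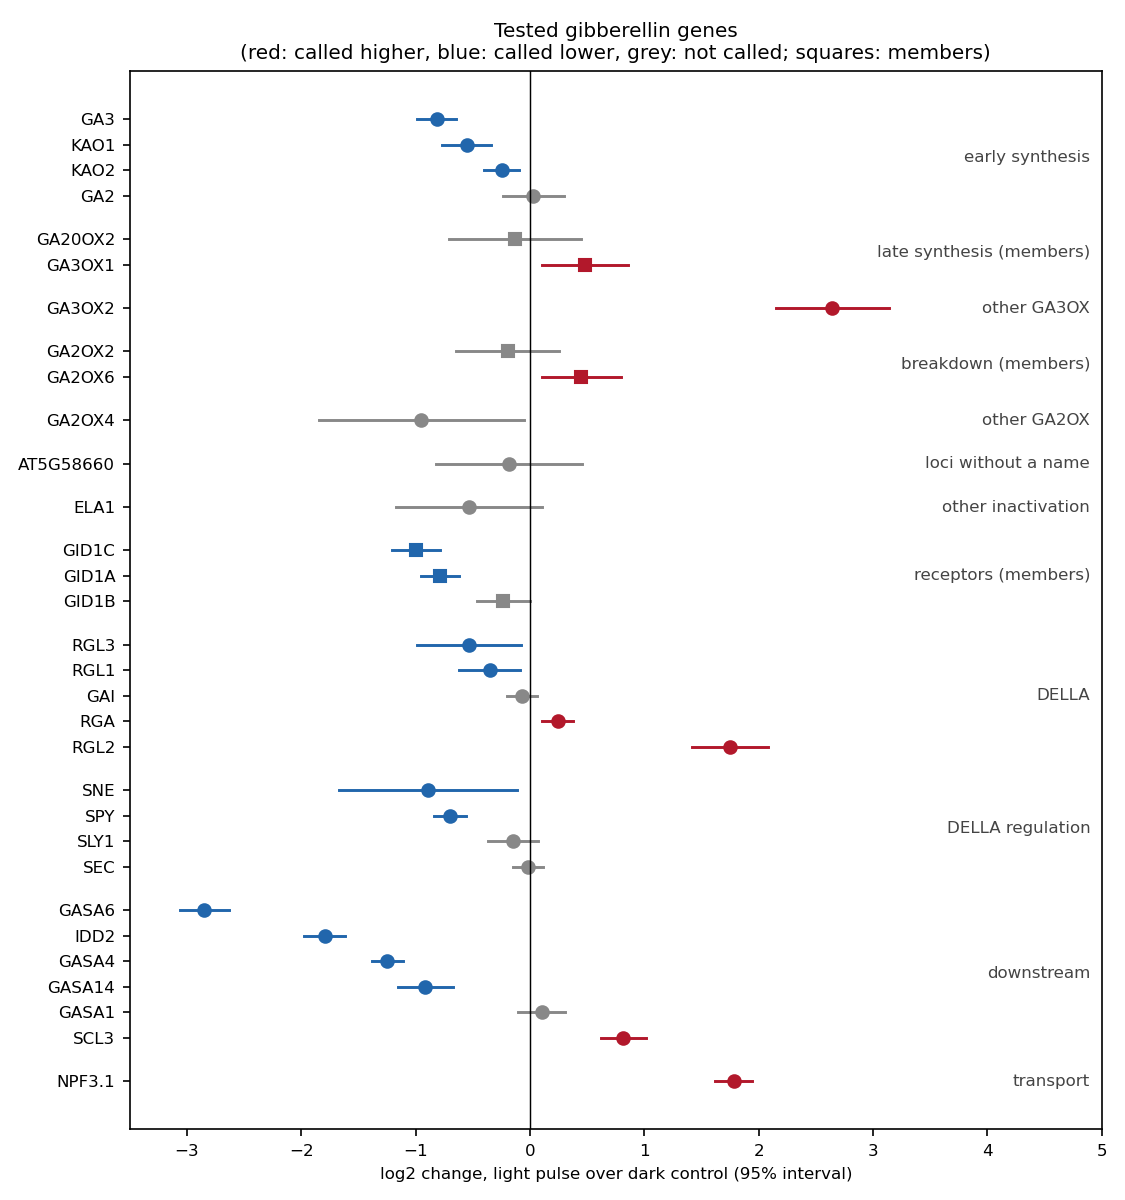
Log2 change (light pulse over dark control) with its 95% interval for the 31 gibberellin genes that passed the low-count filter, grouped by role. Squares are the members and circles the other genes, red marks calls higher in light, blue calls lower, and grey no call. GA3OX2, RGL2 and NPF3.1 lie farthest to the right and GASA6 farthest to the left.

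No change in the usage of a transcript part was called in the 10 genes. Usage of an exon, intron or junction is its count relative to the count of its gene. Of 29 exon parts of the 10 genes, 15 in 7 genes had enough reads to test, and 0 were called by edgeR, with 0 at an unadjusted p under 0.05. Among all 102199 exon parts tested, 0.0988% were called. In GID1A the first exon went from 104 to 48 reads over the 3 libraries of a group and the second from 1151 to 556, and in GID1C from 55 to 28 and from 726 to 297. Both exons of either receptor gene were thus lower in light. The 95% interval for the usage of the second exon was -0.09 to 0.13 in GID1A and -0.16 to 0.13 in GID1C. That exon holds most reads of its gene, so its usage could hardly move and these narrow intervals say little. For the first exon the intervals were wide, -0.55 to 0.45 in GID1A and -0.31 to 0.91 in GID1C.

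Introns and junctions held few reads. Of 17 introns, 0 passed the filter (5.91% of all tested introns were called), and together they held 62 reads in the dark and 55 in light. The first intron of GA2OX6 held 25 and 24 of these. Of 17 junctions, 1 was tested, that of GID1A, and it was not called (0.43 ± 0.42, adjusted p = 0.99), where 0.169% of all tested junctions were. The 3 junctions outside the annotation were seen in 1 read each. The single annotated splicing event of the 10 genes, an intron retention in GA2OX8, held 4 reads in all, too few to test, while 1.19% of all tested events were called.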

How the data were processed

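The authors deposited counts of reads per gene, exon part, spliced part, intron and junction, 1 column per library. The submitters' processing notes list TopHat2 2.0.9, R 3.1 and the TAIR10 build. How reads were counted, whether by strand, and what was done with reads that match several genes is not given in the sources used here. The plastid copies RRN4.5S.1 and RRN4.5S.2 had equal counts in 6 of 6 libraries. Columns carry a group and a letter, not the labels' replicate numbers. Since no label states separate cultures, the p-values cover variation between these libraries alone, and that may be technical.

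Gene counts were tested with edgeR 4.0.16 (quasi-likelihood F test, TMM, filterByExpr, no covariates) in R 4.3.3, over all 20151 genes that passed. Usage tests added an offset, the log of the gene count plus 0.5. DESeq2 1.42.0 was an alternative. Levels per kb use the exon length in the authors' table. The 10 genes share coordinates with 0 other loci there. Methods were tested on simulated counts with a fixed spread between libraries. Genes with as few reads as GA20OX1, GA2OX1 and GA2OX8 were left out of that simulation. The 10 genes are all named, with up to 3 tested genes of each further list by adjusted p. Members and lists were chosen with earlier results of these data known. Libraries of 1 group differed beyond sampling noise (lowest ratio of chi-square to its degrees of freedom, 2.67). Intervals and limits for counts of 0 cover counting error only.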

Additional observations from a re-analysis of the deposited data

How the results depend on the processing

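The falls of GID1A and GID1C kept their call in all 14 alternatives, and the count of the 10 genes called lower was 2 or 3. The count called higher was 0 with library totals alone, 1 without the 2 libraries richest in rRNA and 1 (GA2OX1) with DESeq2. On leaving out single libraries it was 0 to 3, but not always of the same genes tested. Some of those fits took in GA20OX1 and GA2OX1, which then passed the filter through their light reads. Without dark library A the 2 called were GA20OX1 and GA2OX1, while GA3OX1 (adjusted p = 0.0544) and GA2OX6 (0.122) lost their calls. Over the 46 gibberellin loci, 4 were called higher with library totals alone, against 7. With the gene width in place of the exon length, the shares of GA2OX1 and GA2OX2 in their family differed by 15.2 and -10.7 percentage points between light and dark, against 10.7 and -6.48. That GA3OX was treated as a family and that means of CPM were compared for genes under the filter was decided after seeing the data. With the letter of the library as a replicate block, 5941 genes were called higher and 5654 lower, 2 and 2 of the 10 genes, 7 and 13 of the gibberellin loci, and 0 parts, introns or junctions. Among the 13, the block took in GA2OX4 (adjusted p = 0.0498) and dropped SNE (0.0595). Libraries of the same letter correlated at -0.0788, 0.147 and -0.0482 (deviations from group means). These values do not show that the letters pair the libraries, and with 3 per group they cannot exclude a pairing. A pairing across letters was not fitted. Not every library correlated best with its own letter: dark library C did so with light library A (0.161), these being the 2 richest in rRNA, and dark library A with light library C (0.113). The usage counts were 0 under every alternative run. Depth limits the synthesis and breakdown genes most, since GA20OX1, GA2OX1 and GA2OX8 had 45, 52 and 16 reads in all 6 libraries together.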
